A study of Mus musculus with 5 samples.

Results

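Of the 673 genomic intervals listed with more reads in a Flag-SAMD4 immunoprecipitation than in its IgG control, 299 (44.4%) shared no base with an annotated 5′ UTR. They were chosen by coordinates alone: an interval was kept when no 5′ UTR line of the deposited list overlapped it. The remaining 374 intervals touched a 5′ UTR and serve here as the comparison. By the other annotated parts they overlapped, 133 of the 299 lay on coding exons without 3′ UTR, 30 on coding exons together with 3′ UTR, 1 on 3′ UTR without coding exon, 109 on exons of noncoding transcripts only, 10 on exons whose part is not stated and 16 within introns only. A class needed only 1 shared base of its part, so an interval may lie largely outside that part. Of the 163 with a coding exon, 122 also shared bases with an annotated intron. The coding interval of Fstl1 held 105 exon bases in 1109.

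The cells were osteoblasts, the bone-forming cells, from calvaria of neonatal Samd4PB/PB mice on the FVB background, in which a piggyBac transposon disrupts Samd4. They had been immortalized with SV40 and made to express Flag-tagged SAMD4 from a lentivirus. All libraries came from these cells, so both arms lack the normal Samd4 gene and carry the expressed tag. There were 2 libraries of the Flag-SAMD4 IP, 2 of the IgG control and 1 of input. The list gives 1 number of IP reads and 1 number of IgG reads per interval, with no value for the input or for a single library, so no replicate spread can be given. The sources do not say how the libraries of a group were combined in it. The antibody field of the IgG libraries names Flag, whereas their titles and sources name IgG. Of 9 osteoblast markers, only Col1a1 had an interval, and none of the markers of chondrocytes, adipocytes, muscle, macrophages and osteoclasts, or endothelium had one. A list of enriched intervals is not a measure of expression, so this leaves the labelled cell type unchecked.

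SAMD4 belongs with Drosophila Smaug to a family of RNA-binding proteins that repress translation and promote decay of the messenger RNAs they bind. Its SAM domain recognises a short hairpin, the Smaug recognition element, and such hairpins may lie in untranslated or coding parts of a transcript. In RNA immunoprecipitation without crosslinking, RNA held through another protein or RNA is recovered as well, and abundant RNA also reaches the IgG control. No genome sequence of the build used by the files (mm9) was at hand, so no interval sequence was read.

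Strand and pairing limit what the word "noncoding" or "intron" means here. Each of the 4071 transcript copies in the list was paired with exactly 1 interval, and in 519 of 519 cases where a transcript spanned several listed intervals it was the interval with the highest genome coordinate. That is the 3′-most interval for 180 transcripts on the plus strand and the 5′-most for 339 on the minus strand. As a result 97 of the 299 intervals were spanned by a listed transcript whose exons are not given for them, and some of these may hold coding or 5′ UTR bases that the list does not show. The other 202 had every spanning transcript of the list paired with them.

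The intervals without 5′ UTR bases held more reads but a lower ratio of IP to IgG reads than those touching a 5′ UTR. Their median was 103 IP reads (15 to 1274567) and 12 IgG reads (0 to 99783), against 60 IP reads (15 to 3671) and 4 IgG reads (0 to 1387) in 5′ UTR intervals. The ratio, computed with fewer than 3 IgG reads taken as 3, had a median of 6.33 (quartiles 3.92 and 11.4) against 9.33 (quartiles 6.0 and 14.0) in 5′ UTR intervals. A ratio of at least 10 was reached by 89 intervals (29.8%), against 168 (44.9%) of 5′ UTR intervals and 38.2% of all 673. No IgG read was counted in 28 (9.36%), against 69 (18.4%) of 5′ UTR intervals and 14.4% of all. The ratios are of raw reads, since the depth of the libraries is not given, and a common depth factor would shift both kinds of interval alike. With an even expected share, the exact two-sided binomial test called IP higher in 299 of 299 after Benjamini-Hochberg adjustment, but the same call held for 100% of all 673 intervals, because the list holds enriched intervals only.

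**Figure D1:**
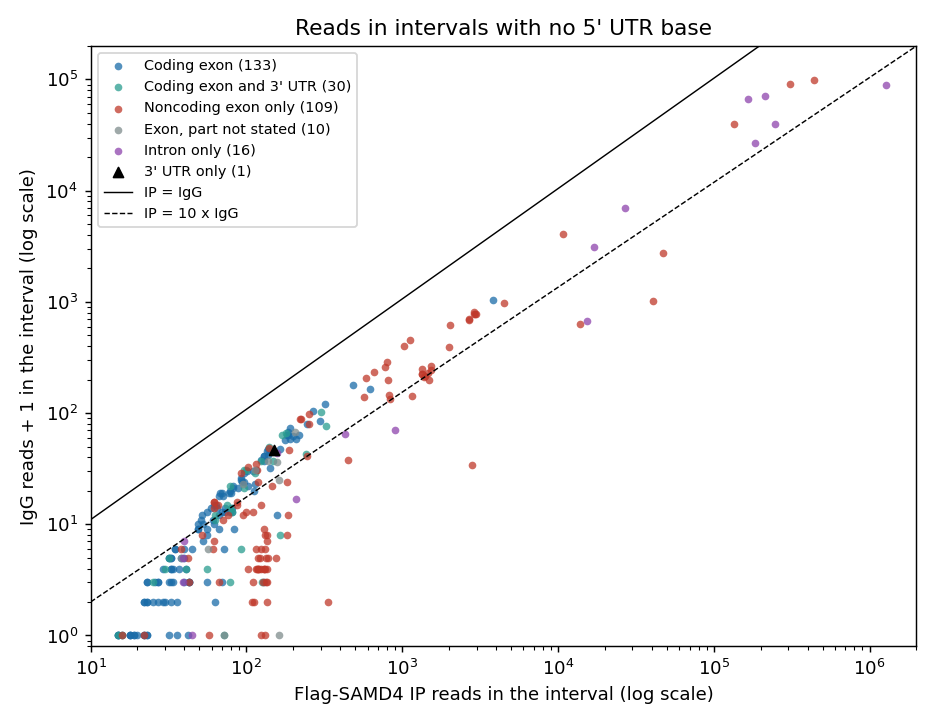
Each point is 1 of the 299 intervals with no 5′ UTR base, with Flag-SAMD4 IP reads on the horizontal axis and IgG reads plus 1 on the vertical axis, both on log scales, coloured by the part of the gene it overlaps. All points lie below the line of equal reads, and the intervals with the most reads, up to 1274567 IP reads, are intronic or noncoding.

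The difference from 5′ UTR intervals varied with depth. Among intervals of 50 to 99 reads in IP and IgG together, the median ratio was 6.15 in the 59 without a 5′ UTR base and 10.6 in the 126 with one. Among those of 100 to 199 reads it was 6.71 in 89 and 7.63 in 69. The 89 include the 32 intervals of the 5S ribosomal RNA array, with ratios of 16.1 to 45.3. Without histone genes, members with a coding exon had 3.76 in 31 at that depth, against 4.86 in 46 5′ UTR intervals. Among intervals of 200 to 499 reads the median ratio was 3.21 in 32 without a 5′ UTR base and 7.0 in 37 with one. Under 50 reads the medians were 8.33 in 70 and 9.33 in 131, where no listed interval had a ratio under 5. At 500 reads or more the order turned, with 4.38 in 49 intervals without a 5′ UTR base and 3.02 in 11 with one. Only 3 of those 49 had a coding exon (median 3.72), so mostly noncoding and intronic intervals are compared there. Length also went with the ratio: the 40 members of at least 1000 bases had a median of 3.74 and the 101 under 200 bases 8.33. Most of the 32 5S intervals, 113 to 216 bases long, are among these 101. The part of depth and length in the difference from 5′ UTR intervals was not tested.

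Reads were concentrated in a few members. The 299 intervals held 98.8% of the IP reads and 98.8% of the IgG reads of the whole list, and the 10 intervals with the most IP reads were all among them. The 15 members with at least 10000 IP reads had a median ratio of 5.50, against 6.42 in the other 284. On the plus strand the median ratio was 5.10 in 141 members against 8.67 in 176 5′ UTR intervals. On the minus strand it was 7.67 in 158 against 9.45 in 198. The minus strand held all 32 intervals of the 5S array, with ratios of 16.1 to 45.3. In the 202 members with every spanning transcript paired the median ratio was 6.0, against 9.33 in 349 such 5′ UTR intervals. Without histone genes, 5S copies and U1 it was 5.78 in 244 members, of which 20.5% reached a ratio of 10, against 8.50 in 323 5′ UTR intervals, of which 39.9% did.

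**Figure D2:**
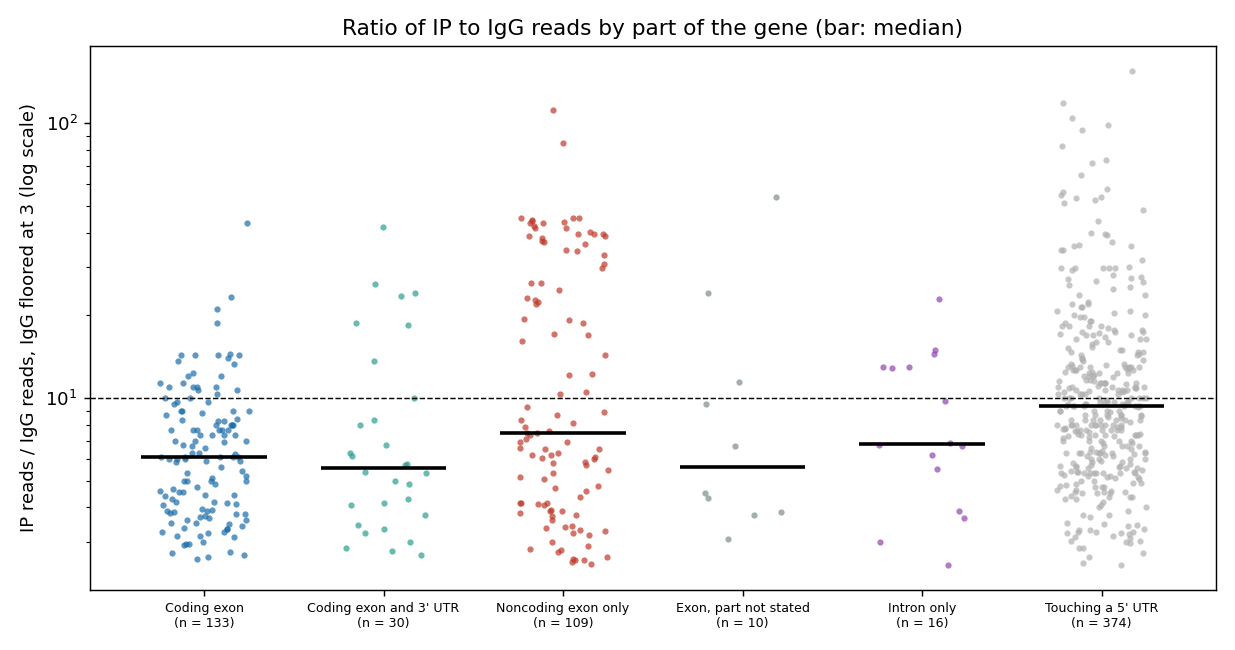
Ratio of IP to IgG reads (log scale, IgG floored at 3 reads) of each interval, by part of the gene, with intervals touching a 5′ UTR on the right; bars are medians and the dashed line is a ratio of 10. The medians are 6.09 for coding exons, 5.54 for coding exons with 3′ UTR, 7.43 for noncoding exons, 5.61 for exons of no stated part, 6.81 for introns and 9.33 for 5′ UTR intervals.

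The 163 members with a coding exon were mostly shallow, with a median of 65 IP reads and 9 IgG reads and a median ratio of 6.0. A ratio of at least 10 was reached by 34 of them (20.9%), below the 38.2% of all intervals. The 5 with the most IP reads were in Col1a1, Tnc, Fbln2, Psap and Col5a2. Col1a1, the main chain of type I collagen, had 3832 reads in IP and 1030 in IgG at chr11:94808804-94811887 (mm9, plus strand, as all coordinates here are mm9 and counted from 1), a ratio of 3.72 (95% interval 3.47 to 3.99). This interval took in 9 whole introns. Tnc, which encodes the matrix glycoprotein tenascin C, had 622 IP reads and 165 IgG reads (3.77, 3.17 to 4.50), and Fbln2, an elastic fibre protein, had 485 and 178 (2.73, 2.29 to 3.25). Psap, the precursor of lysosomal saposins, had 320 IP reads and 119 IgG reads, and Col5a2, a type V collagen chain, 298 and 83. None of these 5 deep coding intervals reached a ratio of 4.

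The highest ratios on coding exons came from intervals with very few IgG reads. For a single interval with 1 or 2 IgG reads the unfloored ratio is printed with its 95% interval, and the floored one after it. Hist1h4n (now H4c18), a histone H4 gene, had 130 reads in IP and 2 in IgG, an unfloored ratio of 65 (17.6 to 542) and a floored one of 43.3. Unc5b, a netrin receptor, had 63 IP reads and 1 IgG read (63, 10.9 to 2527, floored 21). Mtap1s (now Map1s), a microtubule-associated protein, had 70 and 2 (35, 9.33 to 295, floored 23.3), and Plec, the cytoskeletal linker plectin, 56 and 2 (28, 7.40 to 237, floored 18.7). Scaf1, a splicing-related factor, had 72 IP reads and 5 IgG reads (14.4, 5.89 to 45.7). The intervals of these ratios overlap one another, so their order cannot be read. Tnfrsf12a, the TWEAK receptor that the study followed, had 42 reads in IP and 0 in IgG, 14-fold on the floor. Its interval shared 105 of its 293 bases with a coding exon. The 14-fold sets the IP count against a floor of 3 IgG reads and takes no account of the counting error in IP. With that error the unfloored 95% lower limit was 10.9. The interval of Errfi1, the other gene the study followed, touches a 5′ UTR and is not among the members.

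Intervals with coding exon and 3′ UTR together had a median of 86.5 IP reads and 12.5 IgG reads. For this class 1 shared base of each part was enough, and the interval of Inf2 held 1 base of 3′ UTR in 1743. Nisch, an integrin-binding protein, had 325 IP reads and 76 IgG reads (ratio 4.28, 3.32 to 5.57). Ptbp1, a splicing repressor, had 302 and 101 (2.99, 2.38 to 3.78), Rplp0, a protein of the ribosomal stalk, 242 and 42 (5.76, 4.14 to 8.20), Scarf2, a scavenger receptor, 180 and 65 (2.77, 2.07 to 3.74), and Inf2, an actin-nucleating formin, 169 and 63 (2.68, 2.0 to 3.64). At the other end, Cebpb, a bZIP transcription factor of mesenchymal differentiation, had 72 reads in IP and 0 in IgG, at least 24-fold more in IP. Cbx6, a Polycomb protein, had 56 IP reads and 3 IgG reads (18.7, 6.07 to 93.2). Of the 5 highest ratios in this class the other 3 were histone genes, Hist1h3b with 164 IP reads and 7 IgG reads, Hist1h4c with 126 and 2 and Hist1h3a with 78 and 2. The single interval of 3′ UTR without coding exon, in Slc15a3, a peptide transporter, had 151 IP reads and 46 IgG reads (3.28, 2.35 to 4.67).

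Coding members spanned the transcript, whereas 5′ UTR intervals sat at its start. Place was measured as the midpoint of the interval within the genomic span of its paired transcripts, introns included, from 0 at the 5′ end to 1 at the 3′ end. Members had a median of 0.57 (quartiles 0.27 and 0.75), against 0.032 in 5′ UTR intervals, a contrast that the choice of members builds in. Coding exon members had a median of 0.60 and those with 3′ UTR 0.67. Of the 163 coding members, 26 lay in the 5′-most of 5 equal parts of the transcript, then 23, 31, 42 and 41 towards the 3′ end. Their median ratios were 6.33, 5.62, 7.67, 5.14 and 5.76 in that order, with no steady course along the transcript. The middle part includes the histone genes Hist1h4n, Hist1h3b and Hist1h3a. Coding members that took in a whole intron numbered 41 and had a median ratio of 3.91, against 6.75 in the 122 that did not. Those with a whole intron were also longer, with a median length of 630 bases against 259.5.

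**Figure D3:**
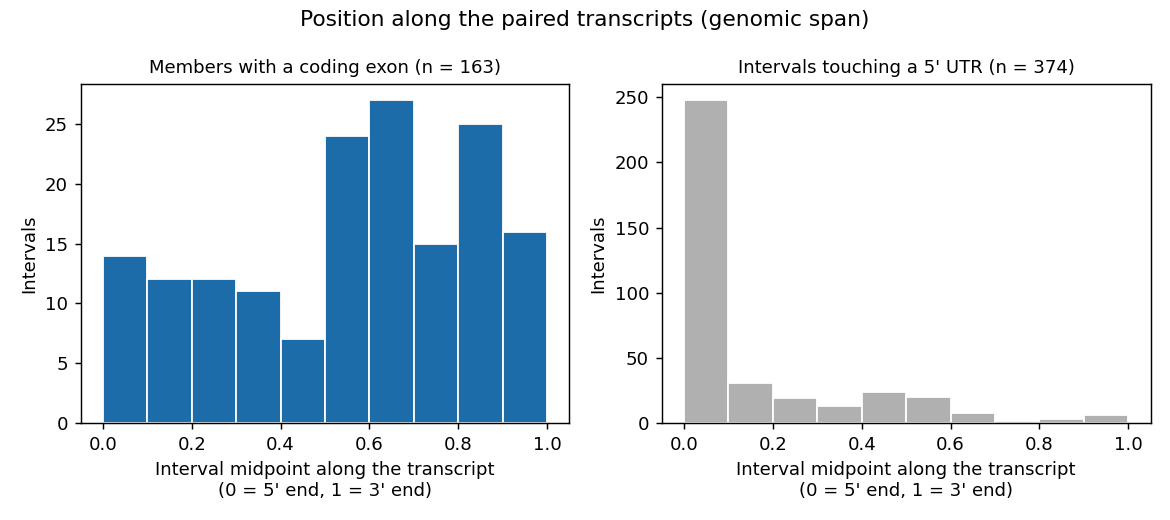
Histograms of the interval midpoint along the paired transcripts, from 0 (5′ end) to 1 (3′ end), for the 163 members with a coding exon on the left and the 374 intervals touching a 5′ UTR on the right; the vertical axes count intervals and differ in scale. The coding members spread over the whole transcript with a median of 0.60, and the 5′ UTR intervals crowd at the start with a median of 0.032.

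The 109 members on noncoding exons split into kinds with very different ratios. A ratio of at least 10 was reached by 46 (42.2%), where 38.2% of all 673 intervals did. Of those 46, 32 lay in the 5S ribosomal RNA array on chromosome 8, and without them 14 of 77 (18.2%) did. Of the 32, 25 carry a 5S name and 7 are named AC141881 and were grouped with them because they lie between them. They had 103 to 156 IP reads and 0 to 8 IgG reads each, with ratios of 16.1 to 45.3. The 5S copies share sequence, and the sources do not say how reads matching several copies were counted. The RNA subunits of the ribonucleases MRP and P were also high: Rmrp had 40539 IP reads and 1026 IgG reads (39.5, 37.1 to 42.1) and Rpph1 2799 and 33 (84.8, 60.3 to 124). Rprl3, a further RNase P RNA-like gene, had 336 IP reads and 1 IgG read (unfloored 336.0, 59.9 to 13310, floored 112).

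The other abundant nuclear RNAs stood much lower. The 12 U1 intervals, the spliceosomal RNA that pairs with the 5′ splice site, had ratios of 5.47 to 8.14. The 5 intervals of U3, the small nucleolar RNA of ribosomal RNA processing, had 3.28 to 3.87, and the 3 of 7SK, which restrains transcription elongation, 2.65 to 4.58. None of the 12 intervals of small nucleolar and Cajal body RNAs and their hosts reached 10, with a median of 4.09. Among them Snhg1 had 1032 IP reads and 402 IgG reads, Snord15b 817 and 197, and Scarna2 582 and 207. These 3 had 197 to 402 IgG reads. Rpph1 and Rprl3 had 33 and 1, and Rmrp, at a ratio of 39.5, had 1026.

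Members carrying microRNA names held some of the largest counts of the list. The interval named mmu-mir-689-2 had 436548 IP reads and 99783 IgG reads (4.38), and one named mmu-mir-2134-4 on chromosome 9 had 309916 and 91039 (3.40). Another of that name on chromosome 13 had 47176 and 2754 (17.1), and mmu-mir-2134-1 had 13834 and 632 (21.9). AC113316.1, a noncoding gene, had 134278 IP reads and 39904 IgG reads (3.37). Intervals of the same microRNA name thus differed in ratio, with 95% intervals of 16.5 to 17.8 on chromosome 13 and 3.38 to 3.43 on chromosome 9. These intervals ran over 200 bases, longer than a mature microRNA. Only 56 or 57 bases of each microRNA-named interval were annotated as exon, and 82 of the 351 of AC113316.1. The intervals of mmu-mir-689-2, of mmu-mir-2134-4 on chromosome 9 and of AC113316.1 also lay wholly within annotated introns. The other genes listed for them were Zc3h7a, C230081A13Rik and Cdk8 in that order. Reads of the named RNA and of the intron around it cannot be told apart there.

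**Figure D4:**
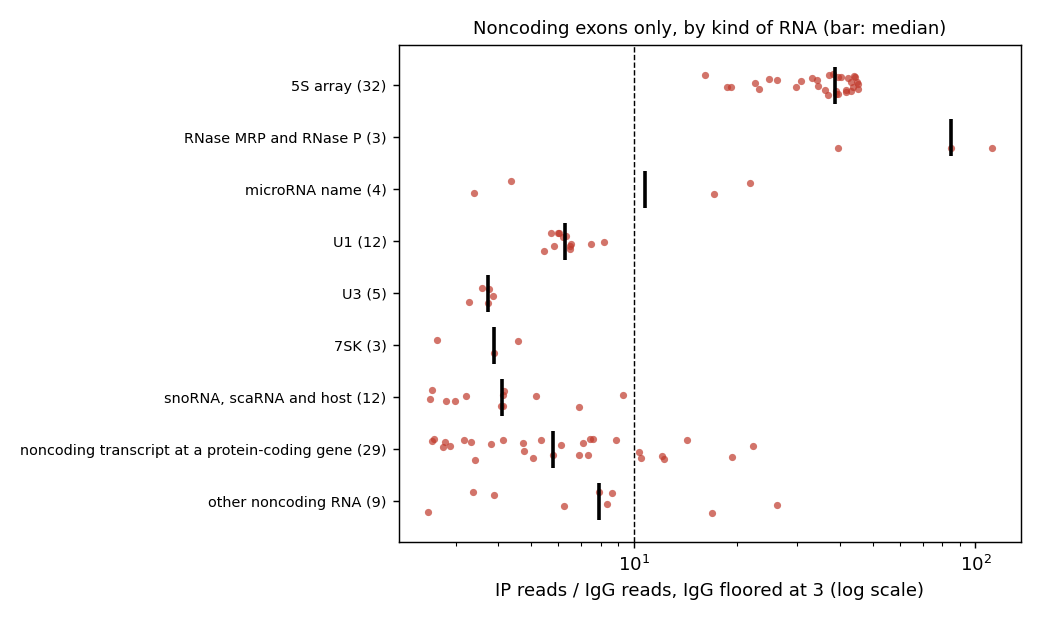
Ratio of IP to IgG reads (log scale, IgG floored at 3 reads) of the 109 members on noncoding exons only, by kind of RNA with the number of intervals in brackets; bars are medians and the dashed line is a ratio of 10. The 32 intervals of the 5S array and the 3 of RNase MRP and P all lie above 10, and all those of U1, U3, 7SK and the snoRNA group lie below it.

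Another 29 members on noncoding exons lay in protein-coding genes, and 28 of these were spanned by a transcript not paired with them, so their coding content is not known from the list. Their median ratio was 5.8, and 7 of 29 (24.1%) reached 10, where 38.2% of all 673 intervals did. Col1a1 had 2 of them, with 2677 IP reads and 702 IgG reads and with 1989 and 393. Prrc2a, a proline-rich coiled-coil protein, had 797 IP reads and 289 IgG reads (2.76), Fbln2 655 and 235 (2.79) and Fstl1, a secreted follistatin-like glycoprotein, 447 and 37 (12.1, 8.63 to 17.4). Eif4a1, the helicase subunit of the cap-binding translation complex, had 58 reads in IP and 0 in IgG, at least 19.3-fold more in IP.

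Of the 16 intervals within introns, 8 had at least 10000 IP reads and 8 had under 1000. The deepest lay in Cmss1, where Filip1l overlaps it, at chr16:57391218-57391795, with 1274567 IP reads and 88399 IgG reads, the most IP reads of the list (14.4, 14.3 to 14.5). Jarid2, a Polycomb cofactor, had 248021 IP reads and 39968 IgG reads (6.21), and Arhgap21 213834 and 71412 (2.99). D130009I18Rik had 184137 and 26836 (6.86), and Sspn, which encodes sarcospan, 166328 and 67164 (2.48). Atf2, a bZIP transcription factor, had 26915 and 6918 (3.89), Tmem56 (now Tlcd4) 17020 and 3095 (5.50), and Tmtc2 15352 and 671 (22.9, 21.2 to 24.8). Between these 8 the ratio thus ran from 2.48 to 22.9, and their counting intervals are narrow.

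The shallow intronic intervals had floored ratios of 3.65 to 15, with wide intervals. The genes 9330185C12Rik, Gm16867 and Gm15419 had 898 IP reads and 70 IgG reads, 207 and 16, and 39 and 4. Dcaf10, a ubiquitin ligase substrate receptor, had 432 and 64 (6.75), and Trpm3, a cation channel, 157 and 43 (3.65). Ptprs, a receptor phosphatase, had 40 and 6 (6.67), Itga9, an integrin chain, 39 and 2 (unfloored 19.5, 5.05 to 167, floored 13), and Txndc11, in an interval of 17 bases, 45 and 0, at least 15-fold more in IP. Intronic members lay at a median of 0.23 along their paired transcripts but at 0.61 along the longest listed transcript, so their place depends on the transcript used.

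For 24 gene names an interval without 5′ UTR base could be set against one touching a 5′ UTR under the same name, in 36 pairs. A depth factor common to both intervals cancels in such a pair. The member had the lower ratio in 21 pairs and the higher in 15, and by name the split was 12 and 12. Two-sided Fisher's exact tests, adjusted over the 168 pairs of intervals that share a gene name, called 4 of 36 pairs (11.1%), near the 12.5% called over all pairs. Over 34 pairs where both intervals lay in the same gene on the same strand, a restriction added after the data were seen, it was 4 (11.8%), against 13.8% of 80 such pairs of the whole list without RNA families. In all 4 the member had the lower ratio and lay downstream. Of the 11 pairs called among the 80, 9 had the downstream interval lower. The member lay upstream in only 4 of the 36 pairs, so being a member and lying downstream cannot be told apart here. Of the pairs, 9 had an unadjusted p up to 0.05. These tests cover counting error between the sequenced libraries only.

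The 4 pairs belong to 3 genes. Myh9, a nonmuscle myosin heavy chain, had 251 IP reads and 79 IgG reads near its 3′ end (chr15:77597561-77597810), against 106 IP reads and 4 IgG reads at its 5′ UTR (chr15:77672058-77672587), an odds ratio of 0.12 (0.031 to 0.33, Fisher's exact adjusted p = 7.19e-06). A second 5′ UTR interval of Myh9, with 101 and 32 reads, gave an odds ratio of 1.0 (0.61 to 1.65) against the same member. Lmna, which encodes lamins A and C of the nuclear envelope, had 73 IP reads and 12 IgG reads on coding exons against 107 and 2 at the 5′ UTR (0.11, 0.012 to 0.54, Fisher's exact adjusted p = 0.0174). Prrc2a had 797 and 289 in the member, against 19 and 0 in one 5′ UTR interval (Fisher's exact adjusted p = 0.0488) and 237 and 54 in another (0.63, 0.45 to 0.88, Fisher's exact adjusted p = 0.0415). The members of all 4 pairs are among those spanned by a transcript not paired with them.

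Several genes showed close ratios at both places. Fbln2 had 485 IP reads and 178 IgG reads in the coding member against 1244 and 454 at the 5′ UTR, an odds ratio of 0.99 (0.81 to 1.23). Amotl2, an angiomotin family protein, had 141 and 31 against 285 and 70 (1.12, 0.69 to 1.85), and Efemp2, a fibulin of elastic fibres, 93 and 28 against 86 and 25 (0.97, 0.50 to 1.87). No member was called higher than a 5′ UTR interval. The nearest were Lrp1, an endocytic receptor, with 145 IP reads and 21 IgG reads against 99 and 30 (2.09, 1.09 to 4.08, Fisher's exact adjusted p = 0.108), and Plxnb2, a semaphorin receptor, with 42 and 4 against 270 and 84 (3.26, 1.13 to 12.9, Fisher's exact adjusted p = 0.114). These genes without a call were chosen after their values were seen.

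**Figure D5:**
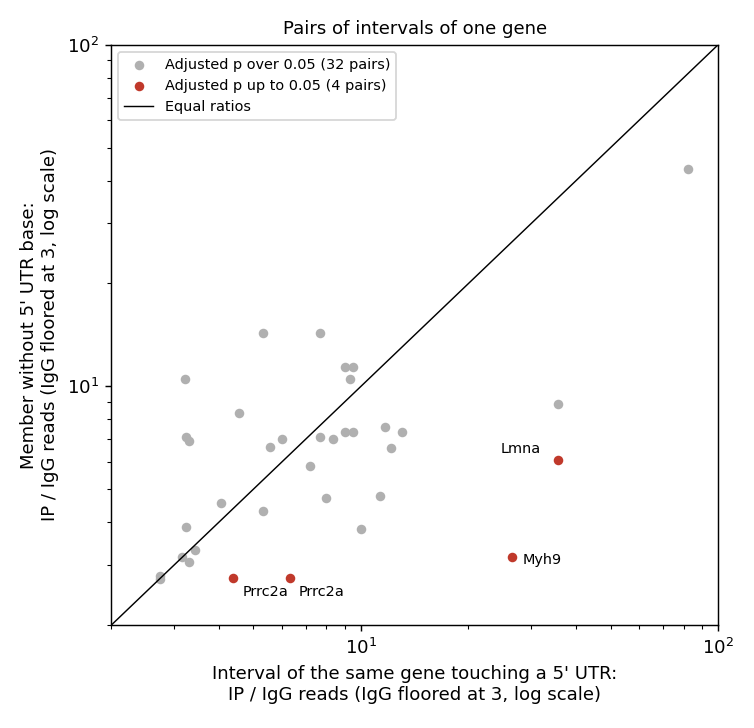
Each point is 1 of 36 pairs of intervals of one gene, with the ratio of IP to IgG reads of the interval without 5′ UTR base on the vertical axis and of the interval touching the 5′ UTR on the horizontal axis, both on log scales with IgG floored at 3 reads; the line marks equal ratios. The 4 pairs called by Fisher's exact test, in Myh9, Lmna and Prrc2a, lie below the line, and the other 32 lie on both sides of it.

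Members of one gene also differed among themselves. Of 34 pairs of members in the same gene on the same strand, RNA families left out, 6 (17.6%) in 5 genes were called, against 13.8% of the 80 such pairs of the whole list. The downstream interval was lower in 4 and higher in 2, where 11.2% of the 80 were called with it lower and 2.50% with it higher. In Fstl1 the downstream coding interval had 268 IP reads and 103 IgG reads (2.60), against 447 and 37 (12.1) upstream, an odds ratio of 0.22 (0.14 to 0.33, Fisher's exact adjusted p = 1.62e-13). In Plec the downstream interval had 56 IP reads and 2 IgG reads, against 246 and 79 upstream (8.96, 2.28 to 77.5, Fisher's exact adjusted p = 0.00131). In Rplp0 the downstream interval with 3′ UTR had 242 and 42, against 251 and 97 upstream (2.22, 1.47 to 3.42, Fisher's exact adjusted p = 0.00122). Col1a1 had 3832 and 1030 at its 3′-most interval, against 1989 and 393 at its 5′-most (0.74, 0.64 to 0.84, Fisher's exact adjusted p = 5.53e-05). The direction thus varied between genes, and in Col1a1 the difference was small though many reads stood behind it. The upstream members of Fstl1, Rplp0 and Col1a1 and the downstream one of Plec were spanned by a transcript not paired with them. The midpoint of the upstream Fstl1 member lay 462 bases from the start of the longest listed transcript. It may therefore hold 5′ UTR bases that the list does not show. The 3 members of Samd4, with 87 IP reads and 15 IgG reads, 124 and 37 and 79 and 19, were not called different. The lentivirus carried the Samd4 open reading frame. Reads on Samd4 coding exons thus cannot be told apart as from the construct or the gene of the cells. The pairs of members given here were also named after their values were seen.

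By function, extracellular matrix and adhesion genes had 17 members among 33 intervals, where 44.4% of all intervals were members, with a median ratio of 4.18 against 7.14 in their 16 5′ UTR intervals, and 2 of the 17 reached 10. The osteoblast and bone matrix list had only the 3 intervals of Col1a1. Cytosolic ribosomal protein genes had 8 members among 22 intervals, none reaching 10, and their median of 4.31 was close to the 4.22 of their 5′ UTR intervals. Cytoskeletal genes had 6 members among 21 intervals (median 6.21 against 9.44 in 5′ UTR intervals), of which 2 reached 10, and RNA-binding protein genes 3 among 14 (3.83 against 10.0). Histone genes had 10 members among 59 intervals, of which 7 reached 10, with a median of 23.7 against 30 in 5′ UTR intervals. Over all 673 intervals 38.2% reached 10, the share to set beside each of these counts.

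The remaining lists had few members. Signalling genes of the Wnt, BMP and TGF-β pathways had 2 of 8 intervals, Id3 and Dvl1, mitochondrial genes 2 of 9, Atp5b and Shmt2, and translation factors 1 of 6, Eif4a1. Chaperones and protein turnover genes had 0 of 5, the long noncoding RNAs Snhg1 and Dancr 2 of 3, and the list of SAMD4 partners and mRNA decay 3 of 4, all of Samd4. The small noncoding RNA list had 36 of 37, of which 28 reached 10, where 38.2% of all 673 intervals did. Those 28 were the 25 intervals with a 5S name and the 3 of RNase MRP and P. The list leaves out most U1 and all U3 intervals, none of which reached 10. It also leaves out the rest of the 5S array, all of which did, and the 4 microRNA names, of which 2 did. For all 673 intervals the median ratio was 8.0.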

How the data were processed

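RNA immunoprecipitation and sequencing was done on Samd4PB/PB osteoblasts expressing Flag-SAMD4, and libraries were grouped by their titles. Per the submitters' processing notes, reads were aligned to mm9 with TopHat2 2.0.9. The interval caller, the handling of reads with several matches and the pooling of libraries are not stated in the sources. The authors deposited 1 count of reads for IP and 1 count for IgG per interval, and as other unit the number of bases shared with a transcript. Their deposited p-value, q-value and fold columns hold the authors' own comparison and were not used. No column of single libraries (0) was left unmapped.

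The list has 16285 lines for 673 intervals and 753 gene names. An interval was a member when no 5′ UTR line shared a base with it. Ratios used an IgG floor of 3 reads (unfloored where said), and 95% intervals (Clopper-Pearson, on the share of IP reads) cover counting error only. Exact binomial tests at a share of 0.5 and Fisher's exact tests of interval pairs, two-sided, were adjusted by Benjamini-Hochberg at 0.05, with scipy 1.17.1, and were tested on simulated data. Current symbols came from RefSeq GRCm38.p6, matching 270 of 326 member gene names. By class, the 5 intervals with the most IP reads, the 5 with the highest ratio, all intronic intervals, called pairs, up to 4 members of each of 13 gene lists, Tnfrsf12a and Errfi1 were to be named. Members, lists and rule were chosen with earlier results of these data known. Alternatives changed the expected share, the floor, the ratio limit, the adjusted p, the annotation used and the intervals included.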

Additional observations from a re-analysis of the deposited data

How the results depend on the processing

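No paired analysis was possible because the IP and IgG columns carry 1 number per group and no replicate number, and for the same reason no library could be left out. With the IP libraries taken as 2 times as deep, a setting added after the data were seen, 296 of 299 members (all intervals: 99.6%) stayed enriched, and with an expected share of 0.852, the share of IP among all reads of the list, 66 (22.1%) did, against 25.3% of all intervals. A ratio limit of 5 gave 193 members and one of 20 gave 45, against 89 at a limit of 10. Without histone genes, 5S copies and U1, 50 members reached 10 and the median ratio was 5.78. Among members with every spanning transcript paired, also added later, 44 reached 10. An IgG floor of 5 reads gave a median ratio of 5.8. At an adjusted p of 0.01, 1 pair of a member and a 5′ UTR interval differed, and with RefSeq lines only 1 of 2 pairs did, in Lmna. The other alternatives kept counts within 1.5 times and medians over all members within their interval. Those on the interval's own 5′ UTR lines, the longest transcript and gene names on several chromosomes were also added later. An alternative using the expected share behind the deposited p-values was not run, because the authors' columns were not used. Intervals of few reads were listed only at high ratios, so a low ratio is not detectable at low depth.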
